A study of Mus musculus with 31 samples.

Results

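The 8 genes described here encode proteins with which macrophages recognise dying cells for engulfment (efferocytosis): the receptors Mertk and Axl, their ligands Gas6 and Pros1, the bridging protein Mfge8, and C1qa, C1qb and C1qc, the chains of the complement protein C1q. They were chosen by name, with earlier results of these data known, so their counts beside the shares of all genes are a description. All 8 were found by Ensembl identifier among the 35275 identifiers of the count table of experiment 1 and the 54532 of experiment 2 (55288 in either table). All 8 passed the filter on low counts in both experiments, which left 12662 and 13313 genes.

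RNA was sequenced from macrophages grown out of bone marrow of male C57BL/6J mice aged 6 to 12 weeks, in culture medium with 30% medium conditioned by L-929 cells, a source of macrophage growth factor. Experiment 1 had 3 libraries in each of 7 groups: Dex+iBRD9+LPS, Dex+dBRD9+LPS, Dex+LPS, iBRD9+LPS, dBRD9+LPS, LPS alone and vehicle. Experiment 2 had 2 libraries in each of 5 groups, in which IFNγ stood beside LPS as the stimulus: Dex+dBRD9+IFNγ+LPS libraries, those with Dex+IFNγ+LPS, those with dBRD9+IFNγ+LPS, IFNγ+LPS alone and vehicle. Dex (dexamethasone, a synthetic glucocorticoid) was given at 1 µM, iBRD9 (an inhibitor of the bromodomain of BRD9, a subunit of a BAF chromatin-remodelling complex) at 3 or 10 µM and dBRD9 (a degrader of BRD9) at 250 nM, overnight, before LPS (bacterial lipopolysaccharide) at 100 ng/ml for 3 h. The labels do not give the dose of iBRD9 for each library, so iBRD9 and dBRD9 cannot be taken as matched in dose, and they name no dose or timing of IFNγ. They also do not say whether the libraries of a group came from separate mice or cultures, so every p-value here measures the spread between libraries, which may be technical. In RNA from whole cultures, fewer cells of a type and less RNA per cell cannot be told apart.

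Dying cells expose phosphatidylserine on their surface. Gas6 and Pros1 bind it and bridge it to the TAM receptor tyrosine kinases (Tyro3, Axl and Mertk), and Mfge8 bridges it to integrins that contain the αv chain. C1q is assembled from its 3 chains, is secreted largely by macrophages, coats dying cells and starts the classical complement pathway. In cultured macrophages Mertk is known as a receptor that glucocorticoids raise, and Axl as one that inflammatory stimuli raise.

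Depth was 19.3 M to 29.9 M counts per library in experiment 1 and 14.5 M to 17.9 M in experiment 2. The glucocorticoid-responsive gene Fkbp5 averaged 538 CPM (read counts scaled to a common library size) in Dex+LPS and 27.8 CPM in LPS libraries, and the LPS-responsive gene Il1b 5849 CPM in LPS and 0.504 CPM in vehicle libraries. The 8 macrophage markers summed to 27462.5 to 27689.6 CPM in Dex+LPS, 16727 to 17445 CPM in LPS and 13391 to 13555 CPM in vehicle libraries. Lyz2 led them, at 5417 to 15398 CPM over the libraries of experiment 1. None of the 8 averaged under 1 CPM over the libraries of either experiment, and with Dex some rose and others fell (given below). Fibroblast and stromal markers summed to 0.378 to 47.5 CPM in experiment 1, almost all of it Pdgfrb, with the collagen genes Col1a1, Col1a2 and Col3a1 at no more than 0.0733 CPM in any group's mean, whereas in experiment 2 they summed to 33.4 to 68.5 CPM, led by Col1a1. Neutrophil markers summed to 0.94 to 22.1 CPM and B cell markers to at most 0.822 CPM in experiment 1, dendritic cell markers to 0.747 to 8.85 CPM, and endothelial markers to 36.5 to 195 CPM, led by Vwf, with Cdh5 at no more than 0.299 CPM in any group's mean. In Dex+LPS replicate 1 and Dex+dBRD9+LPS replicate 1, the deviations from the group mean followed transcript length (Spearman's rho −0.680 and −0.516 over 7593 genes), short transcripts being high, and values without these libraries are given where a call changes or a called value moves by over 1.5 times. In experiment 2 the 2 libraries of a group deviate by equal and opposite amounts, and vehicle (rho −0.636 for replicate 1 and 0.636 for replicate 2 over 7393 genes) and Dex+IFNγ+LPS (0.572 for replicate 1 and −0.572 for replicate 2) followed length most.

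In experiment 1 the 8 genes split in direction with Dex when no BRD9 compound was present. In Dex+LPS against LPS alone, Mertk, Gas6, C1qa, C1qb and C1qc rose and Axl, Pros1 and Mfge8 fell, and in none of the 8 did the libraries of the 2 groups overlap, as in 55.7% of all genes tested. All 8 were called in this comparison (adjusted p under 0.05, edgeR's quasi-likelihood test with Benjamini-Hochberg adjustment over all genes tested), where 55.4% of all genes tested were called (27.9% higher and 27.5% lower). The median log2 fold change of the 8 was 1.00, against 0.01 for all genes tested. The changes ran from −1.74 for Axl to 3.37 for Mertk on the log2 scale.

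**Figure D1:**
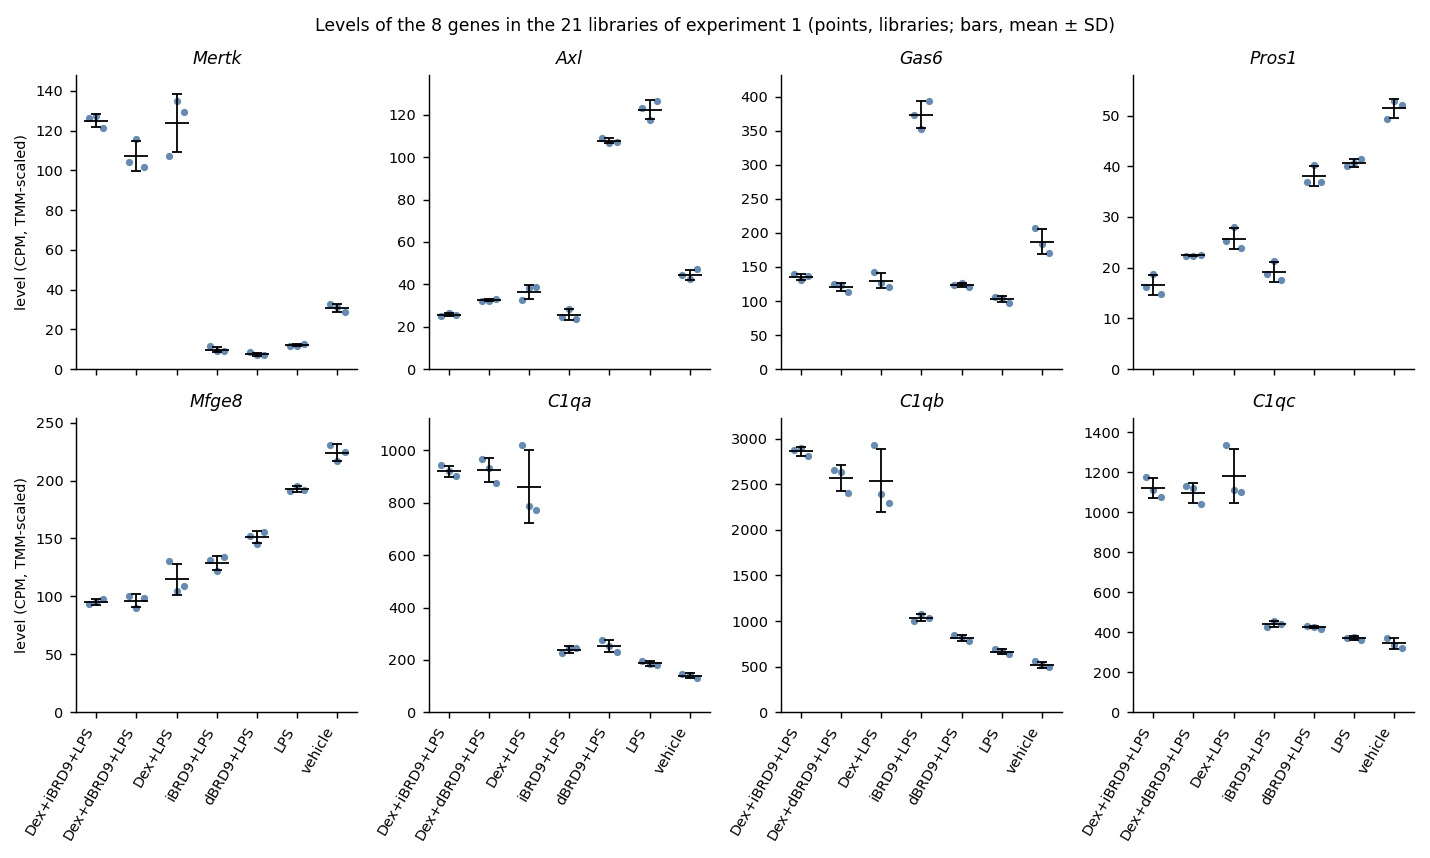
Level of each of the 8 genes (CPM on TMM-scaled library totals, y axis, each panel with its own scale) in the 21 libraries of experiment 1 by group (x axis); points are libraries and bars the mean ± SD of 3. Mertk and the C1q chains stand high in the 3 groups with Dex, Axl stands high in LPS alone and dBRD9+LPS, and Gas6 stands highest in iBRD9+LPS.

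Mertk (ENSMUSG00000014361, chr2:128698956-128802894, plus strand, mm10) encodes the TAM receptor that macrophages use most in clearing apoptotic cells. It had 107, 135 and 129 CPM in the Dex+LPS libraries, against 11.7, 11.7 and 12.5 CPM in the LPS libraries. The group means were 124 ± 14.5 and 12.0 ± 0.475 CPM in that order (SD, n = 3 each), and every library with Dex lay far above every library without it. The difference was 10.4-fold (log2 fold change 3.37 ± 0.096 (SE), adjusted p = 3.5e-18), the largest of the 8 genes in either direction. With LPS alone Mertk fell to these levels against 32.8, 31.2 and 28.6 CPM in the vehicle libraries (log2 fold change −1.37 ± 0.097 (SE), adjusted p = 1.2e-11). The Dex+LPS libraries stood above vehicle as well (2.0, adjusted p = 1e-15). In that comparison of LPS with vehicle 7 of the 8 genes were called, where 75.3% of all genes were (36.1% higher and 39.3% lower). Dex also raised Mertk in the presence of either compound: it had 127, 127 and 121.5 CPM in Dex+iBRD9+LPS libraries against 11.4, 9.28 and 8.98 CPM in iBRD9+LPS libraries (12.6-fold higher, 3.65, adjusted p = 9.7e-19). It had 104, 116 and 102 CPM in Dex+dBRD9+LPS libraries against 8.48, 7.12 and 7.10 CPM in dBRD9+LPS libraries (14.2-fold higher, 3.82, adjusted p = 9.2e-19). From high to low the group means ran Dex+iBRD9+LPS, Dex+LPS, Dex+dBRD9+LPS, vehicle, LPS, iBRD9+LPS and dBRD9+LPS, and only the 3 groups with Dex overlapped their neighbours.

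The 250 bases before the Mertk start in RefSeq (GRCm38.p6, chr2:128698665-128698914, plus strand) are shown because Mertk had the largest change with Dex of the 8 genes. None of 4 motifs searched on both strands was found in them: AGAACA (the half-site of the glucocorticoid receptor), the palindrome of that receptor (the half-site, then its reverse complement after 3 bases of any kind), TGCTGA (a half-site of Maf factors) and the repeat bound by LXR (AGGTCA and a copy of it after 4 bases of any kind), so no letter is in capitals. The shares of all 32851 promoters of this length with these motifs were 16.1%, 0.00913%, 16.1% and 0.0152% in that order, and the absence says only that these letters are not in this window.
Mertk: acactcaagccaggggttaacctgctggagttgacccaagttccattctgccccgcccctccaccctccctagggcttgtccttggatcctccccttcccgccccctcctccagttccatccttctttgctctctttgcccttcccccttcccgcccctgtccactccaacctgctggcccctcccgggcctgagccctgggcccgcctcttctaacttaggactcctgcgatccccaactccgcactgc

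Axl (ENSMUSG00000002602, chr7:25757273-25788705, minus strand), the TAM receptor with the highest affinity for Gas6, ran the other way. It had 32.7, 38.4 and 38.6 CPM in Dex+LPS libraries against 123, 117 and 126 CPM in LPS libraries, with no overlap (3.35-fold lower, log2 fold change −1.74 ± 0.068 (SE), adjusted p = 1e-15). LPS alone raised it above the 44.2, 42.5 and 47.1 CPM of the vehicle libraries (2.74-fold, 1.46, adjusted p = 2.9e-15). Levels were at least as low with iBRD9 and no Dex: 24.8, 28.5 and 23.5 CPM in iBRD9+LPS libraries, 4.78-fold below LPS alone (log2 fold change −2.26 ± 0.069 (SE), adjusted p = 1.7e-17). On the log2 scale this was the largest change of any of the 8 genes with a BRD9 compound against LPS alone. With iBRD9 present, Dex made no detectable difference to Axl, with 25.0, 26.5 and 25.4 CPM in Dex+iBRD9+LPS libraries (log2 fold change against iBRD9+LPS 0.00, 95% interval −0.15 to 0.15). In dBRD9+LPS libraries Axl stayed high, at 109, 107 and 107 CPM, and its difference from LPS alone missed the threshold (−0.18, adjusted p = 0.054, called without both libraries that followed transcript length at the same −0.18). Dex lowered it there to 32.2, 32.2 and 33.1 CPM in Dex+dBRD9+LPS libraries (−1.73, adjusted p = 1.2e-15). The order of the group means was LPS, dBRD9+LPS, vehicle, Dex+LPS, Dex+dBRD9+LPS, Dex+iBRD9+LPS and iBRD9+LPS, in which Dex+LPS overlapped Dex+dBRD9+LPS, and Dex+iBRD9+LPS overlapped iBRD9+LPS.

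The receptors moved in opposite directions with Dex, and their ratio moved more than either. Per kb of exon, Axl over Mertk was 0.255 (0.246 to 0.262) in Dex+LPS libraries (mean, with the range over 3 libraries), against 8.82 (8.66 to 9.09) in LPS and 1.25 (1.16 to 1.42) in vehicle libraries. Mertk transcripts thus outnumbered those of Axl with Dex, and Axl those of Mertk in the LPS libraries. The ratio was 0.177 (0.17 to 0.18) in Dex+iBRD9+LPS and 0.262 (0.24 to 0.28) in Dex+dBRD9+LPS libraries, and, without Dex, 2.26 (1.87 to 2.64) in iBRD9+LPS and 12.3 (11.1 to 13.02) in dBRD9+LPS libraries. The 2 compounds stood on opposite sides of LPS alone without overlapping it or each other, iBRD9 below it, with its fall in Axl, and dBRD9 above it, with its fall in Mertk. Tyro3, the other TAM receptor, was near absent in experiment 1, with group means from 0.147 to 0.363 CPM.

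**Figure D2:**
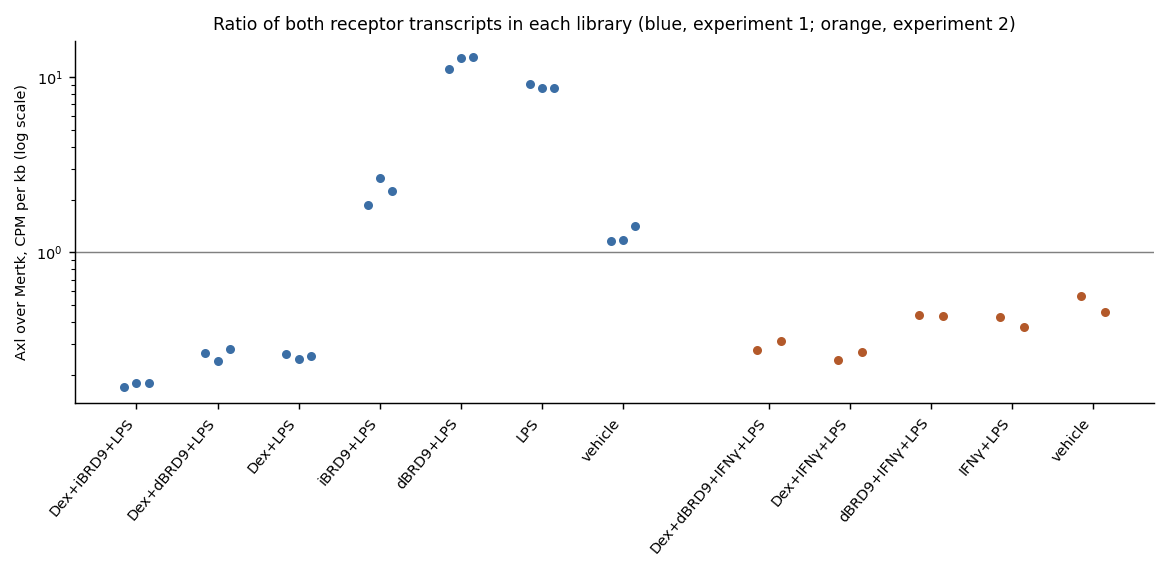
Ratio of Axl to Mertk, each per kb of exon, by library (y axis, log scale) and group (x axis) in both experiments. Points are libraries, and the horizontal line marks equal levels. In experiment 1 the groups with Dex average 0.177 to 0.262 and LPS alone 8.82, whereas in experiment 2 all 5 groups average between 0.256 and 0.513.

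Gas6 (ENSMUSG00000031451, chr8:13465374-13494490, minus strand), a secreted ligand of all 3 TAM receptors, responded most to iBRD9. It had 373, 353 and 393 CPM in iBRD9+LPS libraries, against 106.5, 104 and 97.7 CPM in LPS libraries. The iBRD9+LPS libraries stood above all other libraries of experiment 1, vehicle included, and the rise was 3.63-fold (log2 fold change 1.86 ± 0.07 (SE), adjusted p = 5.4e-16). All 8 genes were called for iBRD9 under LPS, 4 higher and 4 lower, where 62% of all genes were called (31.4% higher and 30.5% lower). With Dex the rise was absent: Gas6 had 139, 131 and 137 CPM in Dex+iBRD9+LPS libraries against 142, 127 and 120.5 CPM in Dex+LPS libraries (0.07, adjusted p = 0.49), and the change with iBRD9 differed between the 2 settings (difference of the log2 fold changes −1.79, adjusted p = 4e-12). Dex alone raised Gas6 little (1.26-fold, 0.34, adjusted p = 0.00026), and with iBRD9 present the Dex libraries were lower (2.75-fold, −1.46, adjusted p = 3.4e-14). dBRD9 gave a rise of 0.26 on the log2 scale, to 124, 126 and 120.2 CPM (adjusted p = 0.0091), a call lost without LPS replicate 3 (0.23). In the vehicle libraries Gas6 had 207, 184 and 170.4 CPM, and it fell with LPS (−0.86, adjusted p = 9.9e-11). In the order of the means (iBRD9+LPS, vehicle, Dex+iBRD9+LPS, Dex+LPS, dBRD9+LPS, Dex+dBRD9+LPS, LPS) the 4 groups after vehicle overlapped, and LPS alone was below all. Gas6 is also expressed in fibroblasts, whose markers summed to 0.855 to 1.93 CPM in iBRD9+LPS and 29.8 to 33.0 CPM in LPS libraries, almost all of it Pdgfrb, and their part in the Gas6 levels was not tested. Its exons overlap those of Tmem255b on the opposite strand over 34 bases, and reads there cannot be told apart without strand.

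Pros1 (ENSMUSG00000022912, chr16:62854307-62929346, plus strand), which encodes protein S, a ligand of Mertk and Tyro3 and a plasma anticoagulant, fell with LPS, with Dex and with iBRD9. It had 25.4, 28.0 and 23.9 CPM in Dex+LPS libraries against 40.0, 40.7 and 41.5 CPM in LPS libraries, with no overlap (log2 fold change −0.66 ± 0.078 (SE), adjusted p = 1.7e-07). In iBRD9+LPS libraries it had 18.8, 21.3 and 17.5 CPM, 2.12-fold below LPS alone (log2 fold change −1.08 ± 0.079 (SE), adjusted p = 5e-11), and in dBRD9+LPS libraries 36.8, 40.3 and 36.9 CPM, which overlapped LPS alone (−0.10, adjusted p = 0.44, 95% interval −0.26 to 0.06). It was lowest with both agents, at 16.2, 18.8 and 14.9 CPM in Dex+iBRD9+LPS libraries, below Dex+LPS (−0.63, adjusted p = 3.8e-06). Against iBRD9+LPS that difference was small (−0.21, adjusted p = 0.044) and was lost when Dex+iBRD9+LPS replicate 1 or 3, or iBRD9+LPS replicate 1 or 2, was left out (−0.31 to −0.13). Dex+dBRD9+LPS libraries had 22.4, 22.4 and 22.5 CPM, 1.70-fold below dBRD9+LPS (−0.76, adjusted p = 2.2e-08). Vehicle libraries were highest, with 49.3, 52.8 and 52.1 CPM (LPS against vehicle −0.34, adjusted p = 0.00028), followed by LPS, dBRD9+LPS, Dex+LPS, Dex+dBRD9+LPS, iBRD9+LPS and Dex+iBRD9+LPS. Only LPS with dBRD9+LPS and iBRD9+LPS with Dex+iBRD9+LPS overlapped as neighbours.

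With the ligands set side by side per kb of exon, Gas6 exceeded Pros1 in every library. Their ratio averaged 31.5 (26.6 to 36.1) in iBRD9+LPS libraries, against 4.05 (3.78 to 4.28) in LPS and 5.86 (5.25 to 6.75) in vehicle libraries, so that iBRD9+LPS stood alone at the top. It was 13.3 (11.2 to 14.8) in Dex+iBRD9+LPS, 8.64 (8.12 to 8.96) in Dex+dBRD9+LPS, 8.11 (7.25 to 8.98) in Dex+LPS and 5.22 (5.03 to 5.40) in dBRD9+LPS libraries.

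Mfge8 (ENSMUSG00000030605, chr7:79133768-79149060, minus strand), which encodes the secreted bridge from phosphatidylserine to αv integrins, was highest in vehicle libraries and lower in every treated group. It had 130.2, 105 and 109 CPM in Dex+LPS libraries, 191, 195 and 192 CPM in LPS libraries and 231, 217 and 224 CPM in vehicle libraries. It fell with LPS (−0.22, adjusted p = 0.004) and further with Dex (log2 fold change −0.75 ± 0.065 (SE), adjusted p = 1.2e-09). Both compounds lowered it under LPS: it had 131, 122 and 134 CPM with iBRD9 (−0.58, adjusted p = 6.2e-08) and 152, 145 and 156 CPM with dBRD9 (−0.35, adjusted p = 0.00038). With Dex it had 93.1, 94.9 and 97.7 CPM with iBRD9 (−0.27, adjusted p = 0.0028) and 100.3, 89.7 and 98.4 CPM with dBRD9 (−0.25, adjusted p = 0.0091). Without Dex+LPS replicate 1 these were −0.17 with iBRD9 and −0.15 with dBRD9, both still called, and with only the compared groups both calls were lost (adjusted p = 0.073 and 0.22). The call with dBRD9 was also lost without Dex+dBRD9+LPS replicate 2 (−0.21). The order was vehicle, LPS, dBRD9+LPS, iBRD9+LPS, Dex+LPS, Dex+dBRD9+LPS and Dex+iBRD9+LPS, with overlap between iBRD9+LPS and Dex+LPS and between the last 2. All 3 Dex+LPS libraries lay above every library with Dex and a compound.

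The 3 C1q genes lie head to tail on the minus strand of chromosome 4 (mm10): C1qb (ENSMUSG00000036905, chr4:136880129-136886187), C1qc (ENSMUSG00000036896, chr4:136889804-136893065) and C1qa (ENSMUSG00000036887, chr4:136895917-136898803). They span 18675 bases, with gaps of 3616 bases between C1qb and C1qc and 2851 bases between C1qc and C1qa and no other gene of the annotation inside. Their group means ran together across the 7 groups of experiment 1 (Pearson's r 0.985 to 0.993 between pairs of chains over 7 group means on the log2 scale, which share libraries and depth) and the 5 groups of experiment 2 (0.900 to 0.967), given as a description.

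Promoters are shown for C1qb and C1qc, the chains that RefSeq (GRCm38.p6) matched, because the chains moved together with Dex. C1qa is named only. The windows, both on the minus strand, are chr4:136886201-136886450 for C1qb (250 bases before its start) and chr4:136893066-136893164 for C1qc. For C1qc these are the 99 bases of its 250 that lie farthest from the RefSeq start. The bases nearer that start are not shown, because an annotated exon begins there. Capitals mark the letters of the glucocorticoid receptor half-site, AGAACA in C1qb and its reverse complement TGTTCT in C1qc, and the Maf half-site TGCTGA in C1qb. AGAACA or TGTTCT stood in 16.1% of all 32851 promoters (250 bases each), and TGCTGA or its reverse complement in 16.1%, and neither the palindrome nor the LXR repeat was found in either window. A match is a run of letters and shows no binding.
C1qb: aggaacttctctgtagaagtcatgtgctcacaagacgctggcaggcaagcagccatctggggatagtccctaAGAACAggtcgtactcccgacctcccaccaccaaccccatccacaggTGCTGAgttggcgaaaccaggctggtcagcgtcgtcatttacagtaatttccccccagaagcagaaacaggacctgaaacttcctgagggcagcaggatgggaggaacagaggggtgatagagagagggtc
C1qc: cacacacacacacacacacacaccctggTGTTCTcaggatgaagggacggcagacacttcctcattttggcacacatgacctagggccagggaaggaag
In the 250 bases before the starts of Axl, Gas6, Pros1 and Mfge8, none of the 4 motifs was found.

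Dex raised all 3 chains under LPS. C1qa had 1022, 789 and 771 CPM in Dex+LPS libraries against 197, 185 and 180.0 CPM in LPS libraries (4.59-fold, log2 fold change 2.2 ± 0.086 (SE), adjusted p = 1.1e-15). C1qb had 2935, 2389.7 and 2289.9 CPM in Dex+LPS libraries against 691, 669.8 and 639 CPM in LPS libraries (3.81-fold, log2 fold change 1.93 ± 0.072 (SE), adjusted p = 4.6e-16). C1qc had 1338, 1111 and 1098.5 CPM in Dex+LPS libraries against 374, 378 and 363 CPM in LPS libraries (3.18-fold, log2 fold change 1.67 ± 0.066 (SE), adjusted p = 1.3e-15). No Dex+LPS library overlapped an LPS library, but Dex+LPS replicate 1, in which short transcripts were high, was the highest of its group for each chain. Without it the log2 fold changes were 2.06 for C1qa, 1.82 for C1qb and 1.58 for C1qc. Of the 8 macrophage markers 4 were called higher with Dex (Adgre1, Csf1r, Lyz2 and Cd14) and 3 lower (Itgam, Fcgr1 and Tyrobp), with a median log2 fold change of 0.12. They summed to 27462.5 to 27689.6 CPM in Dex+LPS and 16727 to 17445 CPM in LPS libraries, with Lyz2 the most abundant, and their part in the C1q result was not tested. Dex also raised the chains with iBRD9 present (log2 fold changes 1.94 for C1qa, 1.46 for C1qb and 1.35 for C1qc) and with dBRD9 present (1.87, 1.65 and 1.36 in that order; 49.8% of all genes were called in the first comparison, 25.7% higher and 24.1% lower, and 55.8% in the second, 29.1% higher and 26.7% lower), with all 6 adjusted p-values at or below 5.6e-14. C1qa had 942, 919 and 900.2 CPM in Dex+iBRD9+LPS and 966, 931 and 875 CPM in Dex+dBRD9+LPS libraries, and both groups overlapped Dex+LPS.

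**Figure D3:**
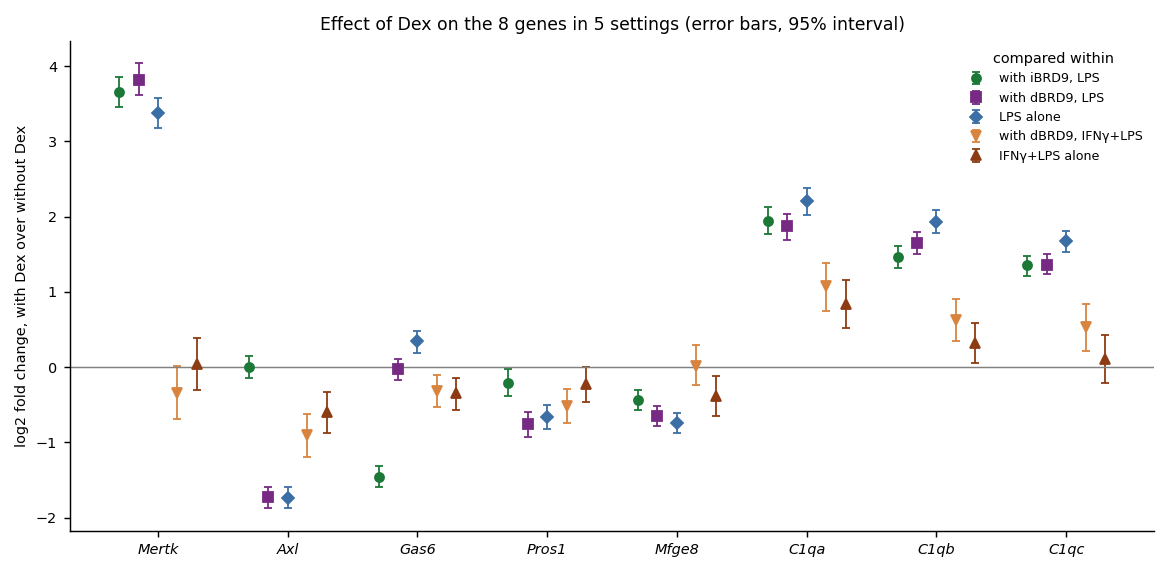
Log2 fold change with Dex (y axis, points, with 95% intervals) for each of the 8 genes (x axis) with iBRD9 present, with dBRD9 present and under the stimulus alone, in both experiments. A value of 0 is no difference. Mertk lies between 3.37 and 3.82 in the 3 settings of experiment 1 and at 0.04 and −0.34 in experiment 2, and Gas6 with iBRD9 present lies at −1.46.

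The chains rose less with a BRD9 compound than with Dex. In iBRD9+LPS libraries C1qb had 999, 1075 and 1037 CPM (0.64, adjusted p = 4.6e-08 against LPS), C1qa 226, 246 and 247 CPM (0.35, adjusted p = 0.00081) and C1qc 424, 454 and 443 CPM (0.24, adjusted p = 0.0024). In dBRD9+LPS libraries C1qa had 276, 253 and 232 CPM (0.44, adjusted p = 0.00055), C1qb 849, 822 and 784 CPM (0.30, adjusted p = 0.004) and C1qc 432, 428 and 419 CPM (0.20, adjusted p = 0.038). These libraries lay above LPS alone and far below every Dex library, and the call for C1qc with dBRD9 was lost when any 1 of the 6 libraries was left out (0.18 to 0.21). LPS alone set C1qa and C1qb above vehicle, at 147, 144 and 131 CPM for C1qa (0.41, adjusted p = 0.00012) and 558, 516 and 493 CPM for C1qb (0.35, adjusted p = 9.5e-05) in vehicle libraries, but with scaling by library totals alone the direction flipped (−0.10 for C1qa, −0.16 for C1qb and −0.40 for C1qc). C1qc had 372, 339 and 322 CPM in vehicle libraries, overlapped LPS and was called without vehicle replicate 1 (0.17) or without both libraries that followed transcript length (0.12) but not with all libraries (0.11, adjusted p = 0.13). That scaling moved the median of all genes to −0.562 for LPS against vehicle, so the C1q chains stayed above that median. As a share of all counts, the chains held 0.492 (0.487 to 0.496) percent in Dex+iBRD9+LPS, 0.456 (0.427 to 0.481) percent in Dex+dBRD9+LPS and 0.436 (0.394 to 0.509) percent in Dex+LPS libraries, against 0.169 (0.163 to 0.174) percent in iBRD9+LPS, 0.14 (0.132 to 0.147) percent in dBRD9+LPS, 0.11 (0.107 to 0.113) percent in LPS and 0.129 (0.122 to 0.137) percent in vehicle libraries.

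The chains did not move by equal amounts. Per kb of exon C1qb stood highest in every library, and C1qa over C1qc was 1.35 (1.30 to 1.42) in Dex+LPS, against 0.936 (0.91 to 0.977) in LPS and 0.759 (0.732 to 0.79) in vehicle libraries. C1qb over C1qa was 2.83 (2.75 to 2.90) in Dex+LPS libraries, against 3.40 (3.36 to 3.46) in LPS and 3.55 (3.42 to 3.64) in vehicle libraries, and reached 4.14 (4.01 to 4.23) in iBRD9+LPS libraries. C1qa thus gained most on the other chains with Dex, and C1qb with iBRD9. For C1qa the order was Dex+dBRD9+LPS, Dex+iBRD9+LPS, Dex+LPS, dBRD9+LPS, iBRD9+LPS, LPS and vehicle, with overlap among the Dex groups and between the compounds alone. For C1qb it was Dex+iBRD9+LPS, Dex+dBRD9+LPS, Dex+LPS, iBRD9+LPS, dBRD9+LPS, LPS and vehicle, where both groups with Dex and a compound overlapped Dex+LPS but not each other. For C1qc it was Dex+LPS, Dex+iBRD9+LPS, Dex+dBRD9+LPS, iBRD9+LPS, dBRD9+LPS, LPS and vehicle, with overlap within the Dex groups, between the compounds alone and between LPS and vehicle.

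The effect of each compound was compared with and without Dex. These comparisons share control libraries (LPS or Dex+LPS), so they are not independent of each other. Without Dex, dBRD9 gave 6 calls of 8, 4 higher and 2 lower, where 16.6% of all genes were called (6.64% higher and 9.97% lower). iBRD9 gave 8 of 8, where 62% of all genes were called (31.4% higher and 30.5% lower), so more genes were called with iBRD9 in general. The median absolute log2 fold change of the 8 was 0.28 with dBRD9 and 0.61 with iBRD9, and this median was not taken over all genes. Neutrophil markers summed to 0.94 to 2.30 CPM in iBRD9+LPS, 17.0 to 19.7 CPM in dBRD9+LPS and 15.7 to 22.1 CPM in LPS libraries. Dendritic cell markers summed to 1.22 to 1.53, 6.42 to 8.85 and 6.86 to 7.80 CPM in the same order, and endothelial markers, led by Vwf, to 60.5 to 66.3, 58.9 to 67.1 and 129 to 137 CPM, and the part of these lists in the changes was not tested. With Dex present, iBRD9 gave 3 calls, Axl, Pros1 and Mfge8, all lower (34.7% of all genes called, 16.7% higher and 18% lower), and dBRD9 gave 1, Mfge8, lower (15.8% of all genes called, 6.51% higher and 9.28% lower). Axl had 25.0, 26.5 and 25.4 CPM in Dex+iBRD9+LPS against 32.7, 38.4 and 38.6 CPM in Dex+LPS libraries (log2 fold change −0.51 ± 0.072 (SE), adjusted p = 8.1e-06). For C1qa and C1qb the difference of Dex+iBRD9+LPS from Dex+LPS missed the threshold (0.10, adjusted p = 0.38 for C1qa; 0.17, adjusted p = 0.059 for C1qb), but without Dex+LPS replicate 1 both were called higher, at 0.24 for C1qa and 0.29 for C1qb, and with the replicate number as a block C1qb was called (0.18, adjusted p = 0.019). For dBRD9 with Dex, the same library decided Mertk (−0.21, adjusted p = 0.089; −0.30 and called without it), Axl (−0.17, adjusted p = 0.11; −0.25 and called without it) and C1qa (0.10, adjusted p = 0.45; 0.24 and called without it). Mertk without Dex was lower with dBRD9 (1.58-fold, −0.66, adjusted p = 0.00019). With iBRD9 it was called at −0.26 (adjusted p = 0.037), a call that was lost when any library other than iBRD9+LPS replicate 1 was left out (−0.38 to −0.20 over the 6 values).

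**Figure D4:**
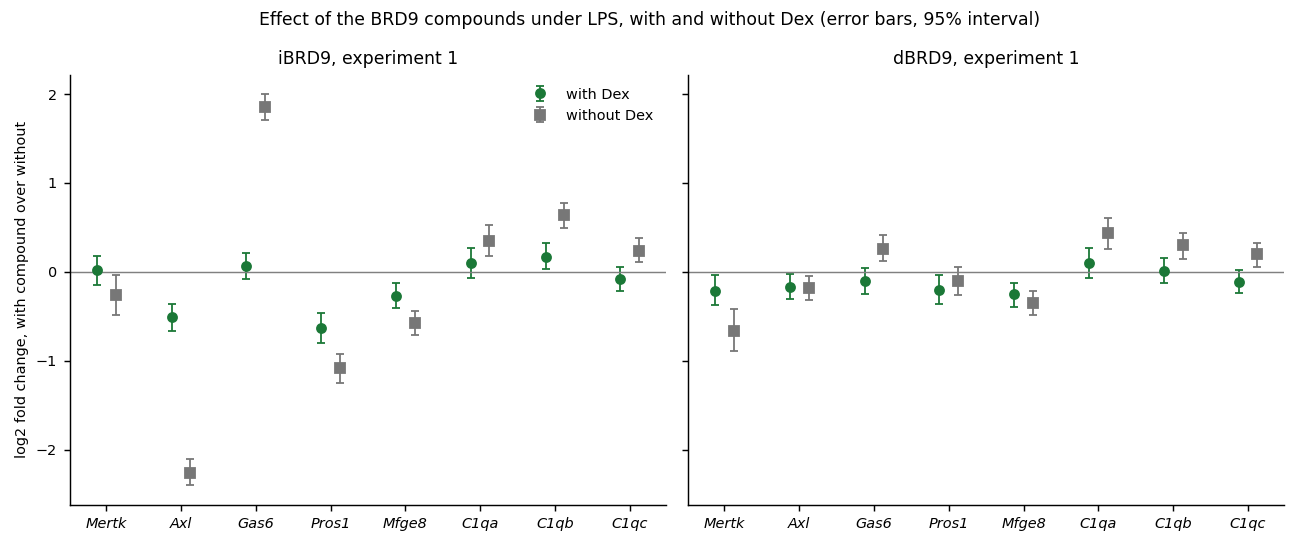
Log2 fold change with iBRD9 or dBRD9 (y axis, points, with 95% intervals) for each of the 8 genes (x axis) with Dex present and without it. A value of 0 is no difference. Under LPS without Dex, iBRD9 lies at −2.26 for Axl and 1.86 for Gas6, and with Dex at −0.51 and 0.07.

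The change with iBRD9 differed between cells with and without Dex in 6 of the 8 genes, where 33.2% of all genes were called (17.3% higher and 16% lower). The difference (the log2 effect of iBRD9 in cells with Dex less its effect in cells without) was 1.75, adjusted p = 7.8e-12, for Axl and −1.79, adjusted p = 4e-12, for Gas6, each opposite in sign to the change with iBRD9 alone. It was 0.45, adjusted p = 0.0038, for Pros1, 0.31, adjusted p = 0.012, for Mfge8, −0.47, adjusted p = 0.00075, for C1qb and −0.32, adjusted p = 0.0086, for C1qc. For Mertk it was 0.28, adjusted p = 0.12, and 0.40 and called without iBRD9+LPS replicate 1, and for C1qa −0.26, adjusted p = 0.096, and −0.32 or −0.33 and called without Dex+LPS replicate 2 or 3. For dBRD9 only Gas6 was called (−0.37, adjusted p = 0.037; 3.39% of all genes called, 1.82% higher and 1.57% lower), and this call was lost without any 1 of the dBRD9+LPS or LPS libraries or without Dex+dBRD9+LPS replicate 2 or 3 (−0.42 to −0.30 over 12 values). Others were gained when a Dex+LPS library was left out: Mertk without replicate 2 (0.52), C1qa and C1qb without replicate 3 (−0.41 and −0.35) and C1qc without any 1 of the 3 (−0.21 to −0.36). Without both libraries that followed transcript length, Mertk (0.38) and C1qc (−0.24) were called.

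iBRD9 and dBRD9 were also set against each other, at doses that the labels do not match, so the values are given side by side and with intervals. Under LPS alone, 6 of the 8 genes differed (55.6% of all genes called, 28.3% higher and 27.3% lower): Axl (−2.08, adjusted p = 1.5e-16) and Pros1 (−0.98, adjusted p = 4.3e-10) were lower with iBRD9 and Gas6 was higher (1.6, adjusted p = 1.1e-14). The calls were smaller for Mertk (0.40, adjusted p = 0.0055), lost without iBRD9+LPS replicate 1 (0.27), Mfge8 (−0.23, adjusted p = 0.0046) and C1qb (0.34, adjusted p = 0.00023). C1qa and C1qc were not called, with differences of −0.08 (95% interval −0.25 to 0.09) and 0.05 (−0.09 to 0.18). With Dex, Axl (−0.34, adjusted p = 0.0018) and Pros1 (−0.43, adjusted p = 0.00088) were lower with iBRD9, the only 2 calls (16% of all genes called, 6.93% higher and 9.04% lower). The 95% intervals with Dex, which are not adjusted for the number of genes, were 0.05 to 0.39 for Mertk, 0.03 to 0.31 for Gas6, −0.15 to 0.12 for Mfge8, −0.18 to 0.16 for C1qa, 0.01 to 0.30 for C1qb and −0.10 to 0.16 for C1qc. Mertk was called higher with iBRD9 without Dex+dBRD9+LPS replicate 2 (0.28). Without both libraries that followed transcript length, Mertk (0.20), Gas6 (0.19) and C1qb (0.18) were called higher as well.

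The 2 experiments were fitted apart, so no difference between them was tested. Axl rose with the stimulus and fell with Dex under the stimulus alone in both. Mertk fell with the stimulus and rose with Dex in experiment 1 but not in experiment 2. In experiment 2 the stimulus with IFNγ raised both receptors: Mertk had 216 and 267 CPM in IFNγ+LPS libraries against 38.4 and 54.6 CPM in vehicle libraries (5.19-fold, log2 fold change 2.37 ± 0.18 (SE), adjusted p = 5.5e-09). Axl had 107 and 117 CPM in IFNγ+LPS libraries against 25.2 and 29.1 CPM in vehicle libraries (4.11-fold, log2 fold change 2.04 ± 0.14 (SE), adjusted p = 1.5e-09). Of the 8 genes, 6 were called for this stimulus, 5 of them higher, where 68.5% of all genes were called (32.8% higher and 35.6% lower). Dex added nothing detectable to Mertk: it had 273 and 225 CPM in Dex+IFNγ+LPS libraries, which overlapped IFNγ+LPS (0.04, 95% interval −0.31 to 0.39), although Fkbp5 averaged 323 CPM in Dex+IFNγ+LPS and 13.4 CPM in IFNγ+LPS libraries. Axl fell with Dex, to 76.4 and 70.7 CPM (−0.60, adjusted p = 0.0033). Dex gave 4 calls among the 8 in all (19.9% of all genes called, 10.7% higher and 9.21% lower). Axl over Mertk per kb was 0.256 (0.241 to 0.271) in Dex+IFNγ+LPS, 0.401 (0.376 to 0.426) in IFNγ+LPS and 0.513 (0.459 to 0.566) in vehicle libraries, so Mertk was ahead in all 10 libraries. With dBRD9, Mertk had 168 and 153 CPM in Dex+dBRD9+IFNγ+LPS and 176 and 231 CPM in dBRD9+IFNγ+LPS libraries; the first was below Dex+IFNγ+LPS without overlap but not called (−0.63, adjusted p = 0.082; −0.76 and called without Dex+IFNγ+LPS replicate 2). Axl had 54.1 and 55.3 CPM in Dex+dBRD9+IFNγ+LPS and 89.6 and 116 CPM in dBRD9+IFNγ+LPS libraries (−0.91, adjusted p = 9.4e-05). Both receptors had their lowest level in vehicle.

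The ligands in experiment 2 parted. Pros1 rose with the stimulus, to 100.2 and 108 CPM in IFNγ+LPS libraries against 30.5 and 31.8 CPM in vehicle libraries (3.35-fold, log2 fold change 1.74 ± 0.11 (SE), adjusted p = 7.9e-10). Gas6 fell, to 379 and 367.5 CPM in IFNγ+LPS libraries against 733 and 695 CPM in vehicle libraries (log2 fold change −0.94 ± 0.1 (SE), adjusted p = 5.9e-07). Their ratio per kb, Gas6 over Pros1, was 5.76 (5.45 to 6.07) in IFNγ+LPS and 36.9 (35.1 to 38.6) in vehicle libraries. Vehicle libraries were thus far above all stimulated ones. With Dex, Gas6 had 295 and 289 CPM (−0.35, adjusted p = 0.02) and Mfge8 95.7 and 91.0 CPM in Dex+IFNγ+LPS libraries, against 128 and 115 CPM in IFNγ+LPS libraries (−0.38, adjusted p = 0.041), and both calls were lost when any 1 of the 4 libraries was left out (−0.39 to −0.33 for Gas6, −0.45 to −0.30 for Mfge8). Pros1 had 87.3 and 90.4 CPM in Dex+IFNγ+LPS libraries and was not called (−0.23, adjusted p = 0.15). With dBRD9 it had 67.6 and 64.8 CPM in Dex+dBRD9+IFNγ+LPS libraries against 99.6 and 90.0 CPM in dBRD9+IFNγ+LPS libraries (−0.52, adjusted p = 0.0021). Gas6 had 340.0 and 334 CPM in Dex+dBRD9+IFNγ+LPS against 394 and 446 CPM in dBRD9+IFNγ+LPS libraries (−0.32, adjusted p = 0.027), lost without dBRD9+IFNγ+LPS replicate 2 (−0.23) or either Dex+dBRD9+IFNγ+LPS library (−0.32 and −0.30). Mfge8 was not called for the stimulus (−0.21, adjusted p = 0.14; −0.33 and called without vehicle replicate 2). Collagen transcripts, which fibroblasts express, were present in all groups of experiment 2, and their part in the ligand levels was not tested.

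Dex raised C1qa in experiment 2, to 1078 and 1384 CPM in Dex+IFNγ+LPS libraries against 693 and 682 CPM in IFNγ+LPS libraries (1.79-fold, log2 fold change 0.84 ± 0.15 (SE), adjusted p = 0.00064). C1qb had 3229 and 3721 CPM in Dex+IFNγ+LPS libraries against 2796 and 2788 CPM in IFNγ+LPS libraries, which did not overlap but missed the threshold (0.32, adjusted p = 0.097). C1qc had 1759 and 2235 CPM in Dex+IFNγ+LPS libraries against 1862 and 1846 CPM in IFNγ+LPS libraries and overlapped (0.11, adjusted p = 0.68). The chains were highest with Dex and dBRD9 together: in Dex+dBRD9+IFNγ+LPS libraries C1qa had 1333 and 1423 CPM, C1qb 4105 and 4064 CPM and C1qc 2643.5 and 2564 CPM. Against dBRD9+IFNγ+LPS libraries, with 613 and 703 CPM for C1qa, 2493 and 2805 CPM for C1qb and 1610.4 and 1996.5 CPM for C1qc, the log2 fold changes were 1.07, adjusted p = 6.7e-05, for C1qa, 0.62, adjusted p = 0.0018, for C1qb and 0.53, adjusted p = 0.014, for C1qc. The call for C1qc was lost without dBRD9+IFNγ+LPS replicate 1 (0.39) or either Dex+dBRD9+IFNγ+LPS library (0.51 and 0.56). Of the 8 genes, 6 were called for Dex with dBRD9 present, 3 higher and 3 lower, where 28.4% of all genes were called (14% higher and 14.4% lower). Against vehicle libraries (609 and 440.3 CPM for C1qa, 2286 and 1795 CPM for C1qb and 1692.5 and 1278 CPM for C1qc), the stimulus gave 0.39, adjusted p = 0.028, for C1qa and 0.45, adjusted p = 0.0052, for C1qb, but the direction flipped with library totals alone (−0.25 and −0.19 in that order), as did that of C1qc (0.32, adjusted p = 0.066; −0.32). The call for C1qa was lost without vehicle replicate 2 (0.18) or either IFNγ+LPS library (0.39 and 0.41), and C1qc was called without vehicle replicate 1 (0.54), where C1qa was at 0.65; C1qb was at 0.29, still called, without vehicle replicate 2. Vehicle replicate 1 and Dex+IFNγ+LPS replicate 2, in which short transcripts were high, were the higher of their groups for each chain. Without Dex+IFNγ+LPS replicate 2 the change with Dex was 0.65 for C1qa, still called, and 0.21 for C1qb and −0.07 for C1qc, neither called.

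**Figure D5:**
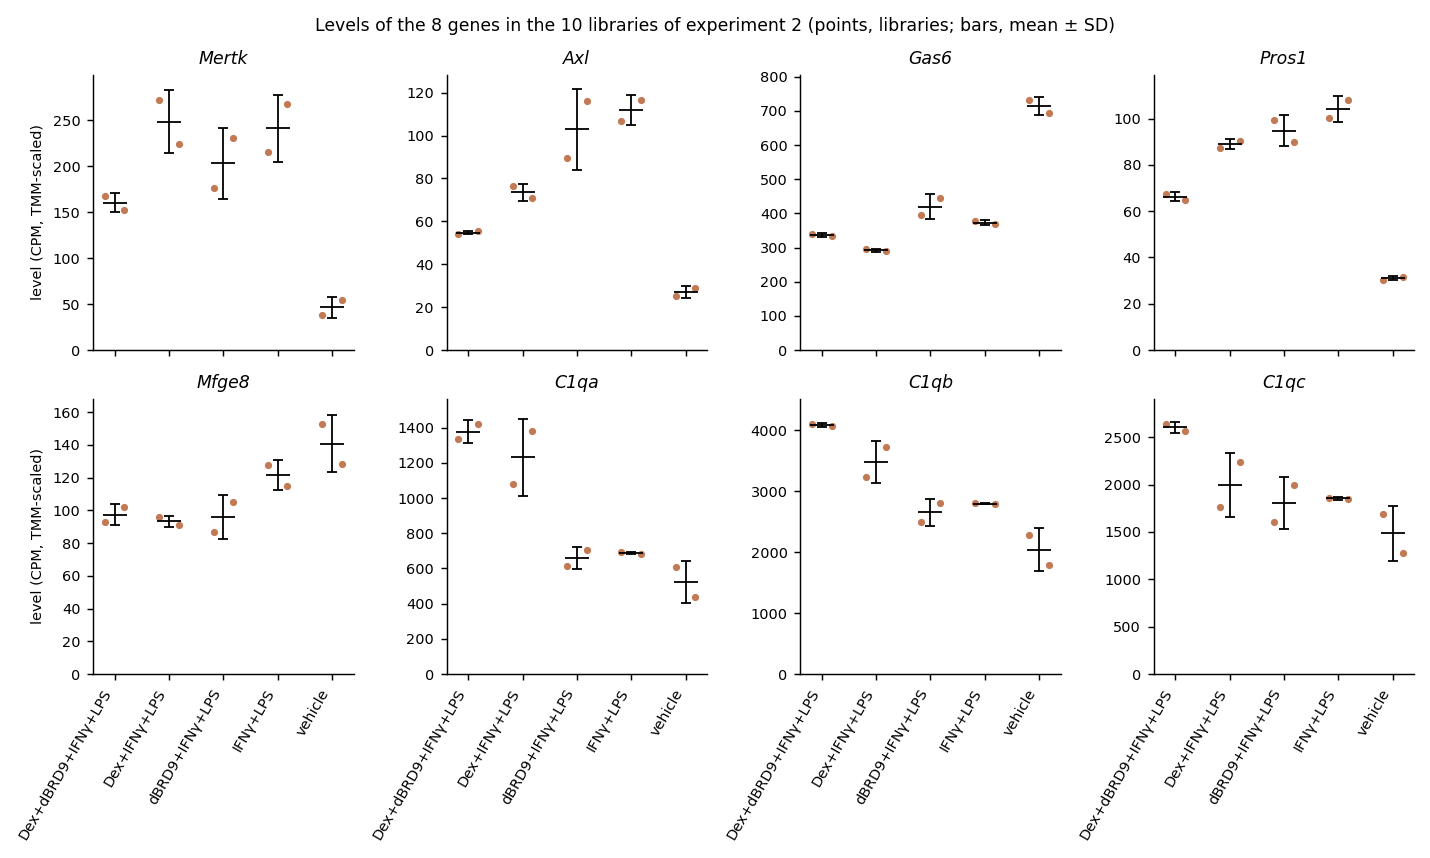
Level of each of the 8 genes (CPM on TMM-scaled library totals, y axis, each panel with its own scale) in the 10 libraries of experiment 2 by group (x axis); points are libraries and bars the mean ± SD of 2. Mertk, Axl and Pros1 stand lowest and Gas6 highest in vehicle, and C1qa stands highest in the groups with Dex.

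In experiment 2 the order of the group means from high to low was Dex+IFNγ+LPS, IFNγ+LPS, dBRD9+IFNγ+LPS, Dex+dBRD9+IFNγ+LPS and vehicle for Mertk, where the first 3 overlapped. For Axl it was IFNγ+LPS, dBRD9+IFNγ+LPS, Dex+IFNγ+LPS, Dex+dBRD9+IFNγ+LPS and vehicle, where the first 2 overlapped, and Pros1 ran in the same order, where dBRD9+IFNγ+LPS and Dex+IFNγ+LPS overlapped. Gas6 ran vehicle, dBRD9+IFNγ+LPS, IFNγ+LPS, Dex+dBRD9+IFNγ+LPS and Dex+IFNγ+LPS with no overlap, and Mfge8 ran vehicle, IFNγ+LPS, Dex+dBRD9+IFNγ+LPS, dBRD9+IFNγ+LPS and Dex+IFNγ+LPS with the last 3 overlapping. C1qa, C1qb and C1qc each ran Dex+dBRD9+IFNγ+LPS, Dex+IFNγ+LPS, IFNγ+LPS, dBRD9+IFNγ+LPS and vehicle. IFNγ+LPS and dBRD9+IFNγ+LPS overlapped for each chain, the 2 groups with Dex for C1qa, and every group but Dex+dBRD9+IFNγ+LPS with its neighbours for C1qc. With 2 libraries a group, an order without overlap is no test.

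edgeR called none of the 8 genes for dBRD9 in experiment 2. Under IFNγ+LPS no member was called (1.83% of all genes called, 0.819% higher and 1.01% lower), 1 had an unadjusted p under 0.05, and DESeq2 and limma called 0 each. With Dex, edgeR called 0 (1.4% of all genes called, 0.233% higher and 1.16% lower) and limma 0, DESeq2 called 2, and 4 had an unadjusted p under 0.05. The largest differences with Dex were −0.63 for Mertk (95% interval −0.98 to −0.28), −0.43 for Axl (−0.71 to −0.15), −0.43 for Pros1 (−0.65 to −0.20) and 0.38 for C1qc (0.07 to 0.70). The difference between these effects was called for no member (0.00751% of all genes, 1 gene of 13313, 0% higher and 0.00751% lower), with 1 unadjusted p under 0.05 and 0 calls by DESeq2 or limma. With Dex and the stimulus together against vehicle, all 8 were called, 6 higher and 2 lower (63.9% of all genes called, 32.6% higher and 31.3% lower), among them Mertk at 2.42, Axl at 1.44, Pros1 at 1.51 and Gas6 at −1.29. In that comparison C1qc (0.43, adjusted p = 0.019) was lost without Dex+IFNγ+LPS replicate 2 (0.25) or vehicle replicate 2 (0.22) and was at −0.14 with library totals alone. The same comparison in experiment 1 gave 2.0 for Mertk, −0.29 for Axl, −1.0 for Pros1 and −0.53 for Gas6, with all 8 called, 4 in each direction (75.6% of all genes called, 36.9% higher and 38.7% lower).

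Other genes of the pathway were taken as whole lists. Their counts stand beside the shares of all genes called: 27.9% higher and 27.5% lower with Dex under LPS, 31.4% and 30.5% with iBRD9, 6.64% and 9.97% with dBRD9, and 36.1% and 39.3% with LPS against vehicle. In experiment 2 the shares were 32.8% higher and 35.6% lower with the stimulus and 10.7% and 9.21% with Dex. Of the phosphatidylserine receptors and bridging proteins besides the 8 genes, 22 of the 29 listed passed the filter in experiment 1. With Dex under LPS, 7 rose and 11 fell (median log2 fold change −0.18, against 0.01 for all genes). Havcr2, which encodes the phosphatidylserine receptor Tim-3, averaged 31.6 CPM in Dex+LPS and 5.41 CPM in LPS libraries (2.56, adjusted p = 7.1e-16), and Stab1, which encodes the scavenger receptor stabilin-1, 1212 and 420.4 CPM in that order (1.53, adjusted p = 1.3e-13). Cd300ld (−2.52) and Lgals3 (−1.27), the gene of galectin-3, fell. With iBRD9, 4 rose and 13 fell (median −0.36, against 0.01 for all genes). Among them Thbs1, which encodes the bridging protein thrombospondin-1, averaged 0.433 CPM in iBRD9+LPS and 23.2 CPM in LPS libraries, its receptor gene Cd36 changed by −1.18 and the integrin gene Itgb3 by 1.5. With dBRD9, 3 rose and 6 fell, Thbs1 (−1.27) and Stab1 (−1.19) among those that fell. With LPS against vehicle, 6 rose and 13 fell: Itgav, the αv chain of the receptors for Mfge8, changed by 3.14 and Cd300lb by −4.07. In experiment 2, 4 rose and 13 fell with the stimulus and 3 rose and 3 fell with Dex, Havcr2 again higher (2.34).

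Of the nuclear receptors and Maf factors known to act on TAM receptor or C1q genes, 10 of the 11 listed were tested in experiment 1, and 7 rose and 2 fell with Dex (median 0.72). Nr1h3, which encodes LXRα, a known activator of Mertk in mice, averaged 104.5 CPM in Dex+LPS and 41.5 CPM in LPS libraries (1.33, adjusted p = 7.9e-13). With iBRD9, 5 rose and 1 fell, Nr1h3 being the one lower (−1.66), and with dBRD9, 1 rose and 2 fell, Nr1h3 again lower (−1.02). In experiment 2 Nr1h3 rose with Dex (1.19) and Maf fell (−2.0), 4 members rising and 1 falling. Among the genes for TAM shedding, ligand carboxylation and downstream steps, 9 of the 12 were tested, and 2 rose and 3 fell with Dex; Socs1, a suppressor of cytokine signals downstream of TAM receptors, fell (−2.42), and Adam17, the protease that sheds Mertk, changed by 0.35 with Dex, −0.53 with iBRD9 and 1.62 with LPS against vehicle. With iBRD9, 7 rose and 2 fell in that list, and with dBRD9, 1 rose and 1 fell.

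Of the complement genes besides the C1q chains, 8 of the 25 listed were tested in experiment 1 and 12 of the 25 in experiment 2. With Dex under LPS, 3 rose and 2 fell; Cd55, which encodes an inhibitor of complement activation, averaged 22.6 CPM in Dex+LPS and 1.19 CPM in LPS libraries, and C3, the central component, changed by 0.37. With iBRD9, 1 rose and 4 fell, C3 at 1.16, and with dBRD9, 1 rose and 2 fell. The stimulus raised C3 in both experiments (3.17 in experiment 1 and 5.26 in experiment 2), 9 genes rising and 1 falling in experiment 2. Of the receptors for complement and C1q, 11 of the 13 listed were tested, and 4 rose and 5 fell with Dex, 1 rose and 7 fell with iBRD9 and 1 rose and 1 fell with dBRD9. The integrin genes Itgax (−2.17) and Itgam (−2.13) and Cd93 (−1.26) fell with iBRD9, and Itgax (−2.07) fell and C5ar1, the receptor for C5a, rose (1.29) with Dex.

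Of the genes for engulfment and handling of the corpse, 23 of the 24 listed were tested: 13 rose and 4 fell with Dex, 10 rose and 9 fell with iBRD9 and 3 rose and 1 fell with dBRD9, with medians of 0.18, 0.07 and 0.03. Abca1, which exports cholesterol, changed by 1.07 with Dex and −1.33 with iBRD9. Of the receptors for find-me signals, 8 of the 8 listed were tested: 3 rose and 3 fell with Dex, 2 rose and 3 fell with iBRD9 and 2 rose and 3 fell with dBRD9. Cx3cr1, the fractalkine receptor, averaged 1.32 CPM in Dex+LPS and 14.4 CPM in LPS libraries, and Cmklr1, the chemerin receptor, changed by 1.12 with Dex, −4.46 with iBRD9 and −0.65 with dBRD9. Of the genes for do-not-eat-me signals, 6 of the 8 listed were tested: 1 rose and 3 fell with Dex, 1 rose and 4 fell with iBRD9 and 0 rose and 3 fell with dBRD9.

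For each of the 8 genes, the 3 others with the most similar pattern in experiment 1 were taken by Pearson's r of log2 levels over the 7 group means. They were taken among 8483 candidate genes, from which pseudogenes, genes with clone names and the 8 genes themselves were first left out. With so few points and shared libraries r is high for many genes, so r over the 5 group means of experiment 2 is set beside it. For Mertk they were Iqgap2 (0.999), Ankzf1 (0.992) and Tns1 (0.992), with 0.155, −0.197 and −0.093 in experiment 2. For Axl they were Car2 (0.989), Cav2 (0.988) and Zyx (0.986), with 0.86, −0.806 and 0.893 in experiment 2. For Gas6 they were Mpst (0.987), Neat1 (0.985) and Mbd3 (0.978), with 0.749, 0.864 and 0.775, and for Pros1 Gngt2 (0.993), Lrrc27 (0.992) and Serpinb6b (0.990), with −0.885, −0.744 and −0.687. For Mfge8 they were Gins2 (0.998), Lig1 (0.994) and Pola1 (0.994), with 0.272, 0.378 and 0.175. For C1qa they were Pramef8 (0.997), Fkbp5 (0.996) and Rnf103 (0.994), with 0.496, 0.986 and 0.807, for C1qb Tug1 (0.997), Cep85 (0.996) and Ifngr1 (0.996), with 0.111, 0.952 and 0.317, and for C1qc Rnf103 (0.996), Fkbp5 (0.996) and Dram2 (0.995), with 0.578, 0.818 and 0.888. Fkbp5, the glucocorticoid-responsive gene, was thus among the 3 closest for C1qa and C1qc in experiment 1, and its r in experiment 2 was 0.986 for C1qa and 0.818 for C1qc.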

How the data were processed

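The authors deposited 1 table of read counts per gene for each of the 2 experiments; per the submitters' processing notes the reads were handled with fastp, STAR and DESeq2, on mm10, while versions, annotation and strandedness of the counting are unknown here. Counts are whole reads per gene, with no normalization by the authors. Ensembl identifiers were matched to symbols in GENCODE M21 (34490 of 35275 and 54495 of 54532). Genes with low counts were removed by group (filterByExpr, minimum count 10, minimum total 15). The experiments were fitted apart, with all groups of each in 1 model, in edgeR 4.0.16 (R 4.3.3): TMM scaling, quasi-likelihood F tests, Benjamini-Hochberg adjustment over all 12662 or 13313 genes, calls at an adjusted p under 0.05. The biological coefficient of variation was 6.79% in experiment 1 and 10.6% in experiment 2. CPM use TMM-scaled totals, which range over 19.3 to 29.9 and 14.5 to 17.9 M counts before scaling, and values per kb divide by the length of all exons. SEs are the log2 fold change over the root of F, and 95% intervals use the t distribution. No 2 libraries of a group agreed within sampling noise (chi-square per degree of freedom 2.13 to 44.8). The labels say nothing of what a replicate number shares. By deviations from the group means, same-numbered libraries of Dex+LPS correlated with those of Dex+dBRD9+LPS (r 0.439 to 0.745 over 3 pairs) and Dex+iBRD9+LPS (0.113 to 0.252). For these 2 comparisons the blocked value is given where it changes a call. Deviations also followed transcript length alike by number: rho for replicates 1, 2 and 3 was −0.680, 0.600 and 0.630 in Dex+LPS. In Dex+dBRD9+LPS it was −0.516, 0.318 and 0.428, and the part of transcript length in these correlations was not tested. The procedure was tested on simulated counts. The members and lists were chosen with earlier results of these data known. Genes named from the lists passed the test, reached 10 CPM in the mean of 1 of the 2 groups, and were among the 4 with the largest change per list and comparison. Likeness used log2(CPM + 1) over genes with at least 10 CPM in the mean of 1 group or more. limma 3.58.1 (voom), DESeq2 1.42.0, other scalings and filters, the replicate number as a block, fits on the compared groups alone and leaving out libraries were alternatives. Promoters come from RefSeq (GRCm38.p6), which matched 7 of the 8 genes. Values of some members of the lists are not reported here.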

Additional observations from a re-analysis of the deposited data

Results flagged for a closer look

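In experiment 1 the change with iBRD9 depended on Dex, by a test of the difference itself (the log2 effect in cells with Dex less that in cells without), for Axl (1.75), Gas6 (−1.79), Pros1 (0.45), Mfge8 (0.31), C1qb (−0.47) and C1qc (−0.32). The change with dBRD9 depended on Dex for Gas6 (−0.37), a call lost with 8 of the 12 libraries when left out singly.

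Between the experiments, every library moved one way in one and the opposite way in the other in 6 cases. No such difference was tested, since the tables were fitted apart and the stimuli differ. Groups without overlap were common among all genes tested: 81.5% for LPS and 83.8% for IFNγ+LPS against vehicle. In experiments 1 and 2 the shares were 55.7% and 60% for Dex under the stimulus, and 62.4% and 66.9% for Dex with dBRD9. For Dex and the stimulus against vehicle they were 73.7% and 79.3%. The share of all genes with such opposite directions is not given here, so the 6 cases are a description. Against vehicle, Mertk changed by −1.37 with LPS in experiment 1 and by 2.37 with IFNγ+LPS in experiment 2, and Pros1 by −0.34 and 1.74 in that order. With Dex under the stimulus, Gas6 changed by 0.34 in experiment 1 and −0.35 in experiment 2. With Dex in the presence of dBRD9, Mertk changed by 3.82 in experiment 1 and was at −0.34, not called, in experiment 2. With Dex and the stimulus against vehicle, Axl changed by −0.29 and 1.44, and Pros1 by −1.0 and 1.51, in that order. The vehicle groups, which had no stimulus, also stood at unlike levels in experiments 1 and 2. Their means were 187 and 714 CPM for Gas6, 30.9 and 46.5 CPM for Mertk, 44.6 and 27.2 CPM for Axl and 51.4 and 31.1 CPM for Pros1. The cause was not tested, and the opposite directions cannot be ascribed to the stimulus.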

How the results depend on the processing

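Over 160 log2 fold changes of the 8 genes and 2200 alternative values of them, 912 values with 1 library left out kept their side of the threshold, 19 gained and 45 lost the call; over the other alternatives 1147 kept their side, 54 gained and 16 lost the call and 7 reversed. The 7 all came with library totals alone: C1qa (−0.10), C1qb (−0.16) and C1qc (−0.40) for LPS against vehicle, C1qa (−0.25), C1qb (−0.19) and C1qc (−0.32) for IFNγ+LPS against vehicle, and C1qc (−0.14) for Dex+IFNγ+LPS against vehicle; that scaling moved the median of all genes to −0.562, −0.758 and −0.629 in these comparisons and to −0.462 for Dex+LPS against vehicle. Among the values that kept their side, 42 of 16 uncalled results had the other sign, at 0.13 or less in size.

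The number of the 8 genes called moved as follows, and the cause was not tested. For Dex+iBRD9+LPS against Dex+LPS it was 3, and 5 without both libraries that followed transcript length (3 to 5 with 1 library left out). For Dex+dBRD9+LPS against Dex+LPS it was 1, and 0 with library totals alone or only the compared groups, 2 with DESeq2 and 4 without both libraries (0 to 4). For Dex+iBRD9+LPS against Dex+dBRD9+LPS it was 2, 4 with no filter, and 5 with only the compared groups or without both libraries. For the difference of the dBRD9 effect between cells with and without Dex in experiment 1 it was 1, and 2 with RLE scaling, DESeq2 or the replicate block, 5 with no filter, 0 with only the compared groups and 3 without both libraries (0 to 4). In experiment 2, Dex gave 4, and 2 whichever library was left out; Dex+dBRD9+IFNγ+LPS against Dex+IFNγ+LPS gave 0, 2 with DESeq2 or no filter, and 3 with only the compared groups (0 to 1).

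Of all genes tested, dBRD9+LPS against LPS called 2103, 3305 with only the compared groups and 3467 without both libraries. With only the compared groups, Dex+iBRD9+LPS against Dex+LPS called 2283 in place of 4391 and Dex+dBRD9+LPS against Dex+LPS 579 in place of 1999. The dBRD9 difference between cells with and without Dex called 429, and 211 with only the compared groups and 949 without both libraries. In experiment 2, dBRD9+IFNγ+LPS against IFNγ+LPS called 243, 390 with no filter and 410 with only the compared groups (down to 65 with 1 library left out); Dex+dBRD9+IFNγ+LPS against Dex+IFNγ+LPS called 186, 285 with DESeq2, 515 with no filter and 511 with only the compared groups (down to 33); and the difference of these effects called 1, 35, 144 and 38 under the same 3 alternatives. Of 21 pairs of groups in experiment 1, same-numbered libraries correlated above 0.1 throughout in 2, both with Dex+LPS. Of the 63 pairs of libraries there, 19 were above 0.1, and dBRD9+LPS with Dex+LPS (−0.060 to 0.468) exceeded it in 2 of 3. In experiment 2, where both numbers of 2 groups give the same value, 3 of 10 pairs of groups were above 0.1 throughout. With the replicate number as a block, Dex+iBRD9+LPS against Dex+LPS gave 4 calls among the 8 genes (C1qb gained), the iBRD9 difference between cells with and without Dex 7 (C1qa gained, −0.26, adjusted p = 0.046), the dBRD9 difference 2 (C1qc gained, −0.30, adjusted p = 0.029), Dex in experiment 2 3 (Mfge8 lost), and Dex with dBRD9 there 5 (Gas6 lost); by edgeR it changed no other call of the 8.

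Experiment 2 had 2 libraries a group and a higher coefficient of variation (10.6%, against 6.79% in experiment 1), and the cause of the higher value was not tested. An uncalled gene there is not shown to be unchanged.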
